A study of Mus musculus with 12 samples.

Results

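The 10 genes described here encode the secreted machinery that controls insulin-like growth factor (IGF) outside the cell: the proteases *Pappa* and *Pappa2*, their inhibitors *Stc1* and *Stc2*, and the IGF-binding proteins *Igfbp2* to *Igfbp7*. They were taken by name from the 38481 genes to which the counted transcripts summed, and all 10 passed the filter on low counts. *Pappa* and *Stc1* were chosen because their RNA was higher with the Crebl2 siRNA in these same libraries. Their siRNA values, and how those values differ between drug and vehicle, are therefore a description with no test. Their change with rapamycin and every change of the other 8 genes were tested. The rapamycin tests of *Pappa* and *Stc1* use libraries on which these genes were chosen, so they are not independent of that choice. The list of members was also drawn up with earlier results of these data known, which limits the tests of the other 8.

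RNA came from C2C12 cells, an established line of mouse myoblasts, the precursors that can fuse into muscle fibres. The study crossed an siRNA with a drug in 4 groups of 3 libraries. The siRNA was directed against Crebl2, a small protein related to the CREB family of transcription factors, or, as the control, against Renilla Luciferase (Luc), which mouse cells do not have. After 3 days of siRNA the cells received rapamycin at 20 nM, which inhibits the mTOR kinase, or its solvent ethanol for 12 hours. The 4 groups are called control (Luc siRNA, ethanol), rapamycin-only (Luc siRNA, rapamycin), knockdown (Crebl2 siRNA, ethanol) and combined (Crebl2 siRNA, rapamycin). All groups were grown in high-glucose medium with serum, and the labels name a single siRNA sequence against Crebl2. The labels do not say whether the 3 libraries of a group are separate cultures, so the p-values rest on the spread between libraries, which may be technical.

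IGFs act through a receptor tyrosine kinase and, in muscle, promote growth and differentiation of myoblasts through PI3K, AKT and mTOR. Outside the cell most IGF is held by binding proteins, which keep it from the receptor. The pappalysins PAPP-A and PAPP-A2 are secreted zinc metalloproteases that cut certain binding proteins and so release IGF near the cell surface. PAPP-A is known for cutting IGFBP-4, and both pappalysins cut IGFBP-5, while IGFBP-3 is a substrate of PAPP-A2. The stanniocalcins STC1 and STC2 are secreted glycoproteins that bind pappalysins and block their activity.

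The shared features of the families can be read in their coding sequences, printed 5′ to 3′ on the coding strand from the GENCODE M21 transcripts. The pappalysins are shown first because the RNA of both was higher in every library with the Crebl2 siRNA. Capitals mark the codons for the histidine, glutamate and glycine residues of the elongated zinc-binding motif, which holds the catalytic metal ion. In *Pappa* these are codons 559 to 569 of 1624, and in *Pappa2* codons 734 to 744 of 1789.
Pappa: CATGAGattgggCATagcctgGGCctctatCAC
Pappa2: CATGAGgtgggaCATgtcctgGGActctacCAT
Both genes encode the same residues at the marked codons, with synonymous codons for the glycine and the last histidine. Over the whole coding region, 62.8% of 4700 aligned bases were identical. Between the full transcripts, untranslated parts included, the longest run of bases shared without a mismatch was 17. The coding regions of *Stc1* (744 bases) and *Stc2* (891 bases) were identical at 60.2% of 727 aligned bases.

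The IGF-binding proteins are shown by the cysteine motif of their amino-terminal domain, the domain that takes part in holding IGF. Capitals mark the cysteine codons, and the stretches are codons 67 to 74 of *Igfbp2*, 68 to 75 of *Igfbp3*, 52 to 59 of *Igfbp4* and 51 to 58 of *Igfbp5*.
Igfbp2: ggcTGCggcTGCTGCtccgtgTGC
Igfbp3: ggcTGCggcTGCTGCctgactTGC
Igfbp4: ggcTGCggtTGTTGCgccactTGC
Igfbp5: ggcTGTggcTGCTGCatgactTGC
The same pattern was not matched in the coding sequences of *Igfbp6* and *Igfbp7*. Across the 15 pairs of binding proteins, coding identity was 61.7% to 67.2%. Gaps were left out of all the identities given here, and no unrelated pairs were aligned for comparison. The longest identical run between the full transcripts of any pair of the 10 genes was 33 bases, found between *Igfbp2* and *Igfbp3*. It need not lie in the coding region.

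On GRCm38 the proteases lie at chr4:65124174-65357509 on the plus strand (*Pappa*) and chr1:158711727-158958367 on the minus strand (*Pappa2*). *Stc1* lies at chr14:69029238-69041804 on the plus strand and *Stc2* at chr11:31357307-31370074 on the minus strand. *Igfbp2* (chr1:72824503-72852474, plus) and *Igfbp5* (chr1:72857932-72874884, minus) are neighbours on chromosome 1. The others are *Igfbp3* (chr11:7206086-7213923, minus), *Igfbp4* (chr11:99041244-99054392, plus), *Igfbp6* (chr15:102144362-102149511, plus) and *Igfbp7* (chr5:77349240-77408041, minus). Reads that several listed transcripts share are missing from the counts, so each gene was read only over the exonic bases that belong to a single listed transcript. That share of the exonic bases was 100% for *Pappa*, *Pappa2*, *Stc1*, *Stc2*, *Igfbp5* and *Igfbp6*. It was 83.5% for *Igfbp4*, 68.1% for *Igfbp3*, 42.6% for *Igfbp2* and 8.4% for *Igfbp7*. *Igfbp7* was thus measured over 102 bases and had 4 to 22 counts per library, and its values are hardly readable.

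The 12 libraries held 33404087 to 42891015 counts. Levels below are CPM, the count of a gene relative to the library total, after TMM scaling of those totals, and a change is a log2 fold change. Adjusted p-values are Benjamini-Hochberg values over the 13247 genes tested with edgeR's quasi-likelihood test, and a gene is said to have risen or fallen where this value was under 0.05. The targeted gene was lower in each library with its siRNA: *Crebl2* stood at 23.81 to 26.18 CPM (Luc siRNA) and 4.87 to 7.41 CPM (Crebl2 siRNA) in ethanol, and at 36.28 to 39.96 and 8.97 to 10.65 CPM in rapamycin. *Crebl2* also rose with rapamycin, by 0.58 (SE 0.10, adjusted p = 0.00019) with the Luc siRNA and 0.68 (SE 0.12, adjusted p = 0.0002) with the Crebl2 siRNA.

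With rapamycin the protease *Pappa* rose and the inhibitor *Stc2* fell on either siRNA, and the binding proteins were mixed under either factor. Of the 8 genes other than *Pappa* and *Stc1*, 4 rose (*Pappa2*, *Stc2*, *Igfbp3*, *Igfbp4*) and 1 fell (*Igfbp5*) with the Crebl2 siRNA in ethanol. Over all tested genes 38.4% were called in that comparison, 21.4% rising and 17% falling. In rapamycin 2 of the 8 rose (*Pappa2*, *Igfbp3*) and 1 fell (*Igfbp5*), against 33.1% of all genes called, 16.3% rising and 16.8% falling. Of all 10 genes, 1 rose (*Pappa*) and 4 fell (*Stc1*, *Stc2*, *Igfbp3*, *Igfbp5*) with rapamycin on the Luc siRNA, where 41.1% of all genes were called, 19.5% rising and 21.6% falling. On the Crebl2 siRNA 3 rose (*Pappa*, *Pappa2*, *Igfbp7*) and 3 fell (*Stc2*, *Igfbp3*, *Igfbp5*), against 45.3% of all genes called, 19.7% rising and 25.6% falling. The median change of the 8 genes with the siRNA was 0.27 in ethanol and 0.29 in rapamycin, and that of the 10 genes with rapamycin was −0.14 on the Luc siRNA and 0.01 on the Crebl2 siRNA. Over all tested genes the 4 medians lay between −0.013 and 0.017. The 4 comparisons share libraries, each group entering 2 of them, so they are given side by side and not as repeats of each other.

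**Figure D1:**
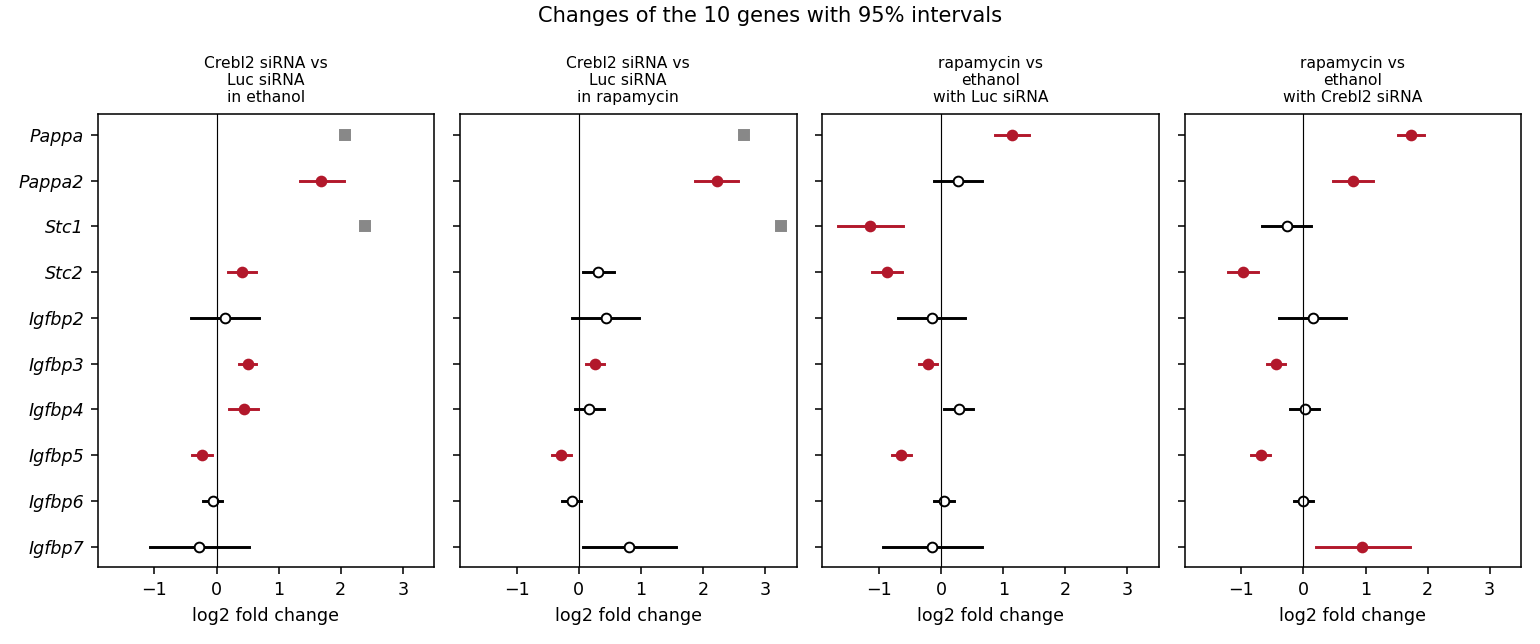
Log2 fold change (x axis) of each of the 10 genes (y axis) in the 4 comparisons (panels); bars are 95% intervals from the edgeR fit, filled red circles have an adjusted p under 0.05, and grey squares are values given without a test or interval because the gene was chosen on them. *Pappa* lies to the right of 0 and *Stc2* to the left of 0 in both rapamycin panels, and *Igfbp5* lies to the left of 0 in all 4 panels.

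*Pappa*, the protease that cuts IGFBP-4 and IGFBP-5, was lowest in the control and highest in the combined libraries. Its level was 2.66, 2.52 and 2.39 CPM in the control and 5.68, 4.89 and 6.14 CPM in the rapamycin-only libraries. The knockdown libraries had 12.47, 10.14 and 9.18 CPM and the combined libraries 33.81, 36.53 and 35.46 CPM. No group overlapped another, and the groups stood in the order of control, rapamycin-only, knockdown and combined. Groups of 3 libraries that do not overlap were common here. They were found for 46.9% (ethanol) and 46% (rapamycin) of all tested genes between the siRNAs, and for 50.4% (Luc siRNA) and 53.6% (Crebl2 siRNA) between drug and solvent.

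With rapamycin *Pappa* rose by 1.14 (SE 0.13, 2.2-fold, adjusted p = 3.4e-06) on the Luc siRNA and by 1.73 (SE 0.10, 3.33-fold, adjusted p = 1.7e-09) on the Crebl2 siRNA. For the siRNA, on which the gene was chosen, the log2 difference was 2.07 in ethanol and 2.66 in rapamycin. The rapamycin change of *Pappa* was thus larger by 0.60 on the Crebl2 siRNA than on the Luc siRNA. From the lowest to the highest group the mean went from 2.52 ± 0.132 to 35.3 ± 1.37 CPM (SD, n = 3), a ratio of 14. Multiplying the ratios of the siRNA alone and of rapamycin alone would put the last group at 23.4 CPM. These values of *Pappa* with the siRNA carry no test, and its rapamycin tests share libraries with the choice of the gene.

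*Pappa2*, the second pappalysin, was not chosen for its siRNA rise, although the members were listed with earlier results of these data known. It was also higher with the Crebl2 siRNA. Its level was 2.56, 2.73 and 2.75 CPM in the control and 10.58, 8.22 and 7.17 CPM in the knockdown libraries. Rapamycin-only libraries held 3.94, 2.44 and 3.37 CPM, and combined libraries 14.85, 13.7 and 16.7 CPM. Every library with the Crebl2 siRNA was above every library with the Luc siRNA, while the Luc libraries with and without rapamycin overlapped.

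The siRNA difference of *Pappa2* was a rise of 1.69 in ethanol (SE 0.17, 3.23-fold, adjusted p = 1.6e-06) and of 2.22 in rapamycin (SE 0.16, 4.65-fold, adjusted p = 8e-08). By size these were the 196th and the 70th of the 13247 changes. Rapamycin raised *Pappa2* by 0.80 on the Crebl2 siRNA (SE 0.15, adjusted p = 0.00034). On the Luc siRNA the value was 0.27 with a 95% interval of −0.11 to 0.66 (adjusted p = 0.25). The difference between these rapamycin changes was 0.53 (SE 0.23) and did not pass the test (adjusted p = 0.32).

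**Figure D2:**
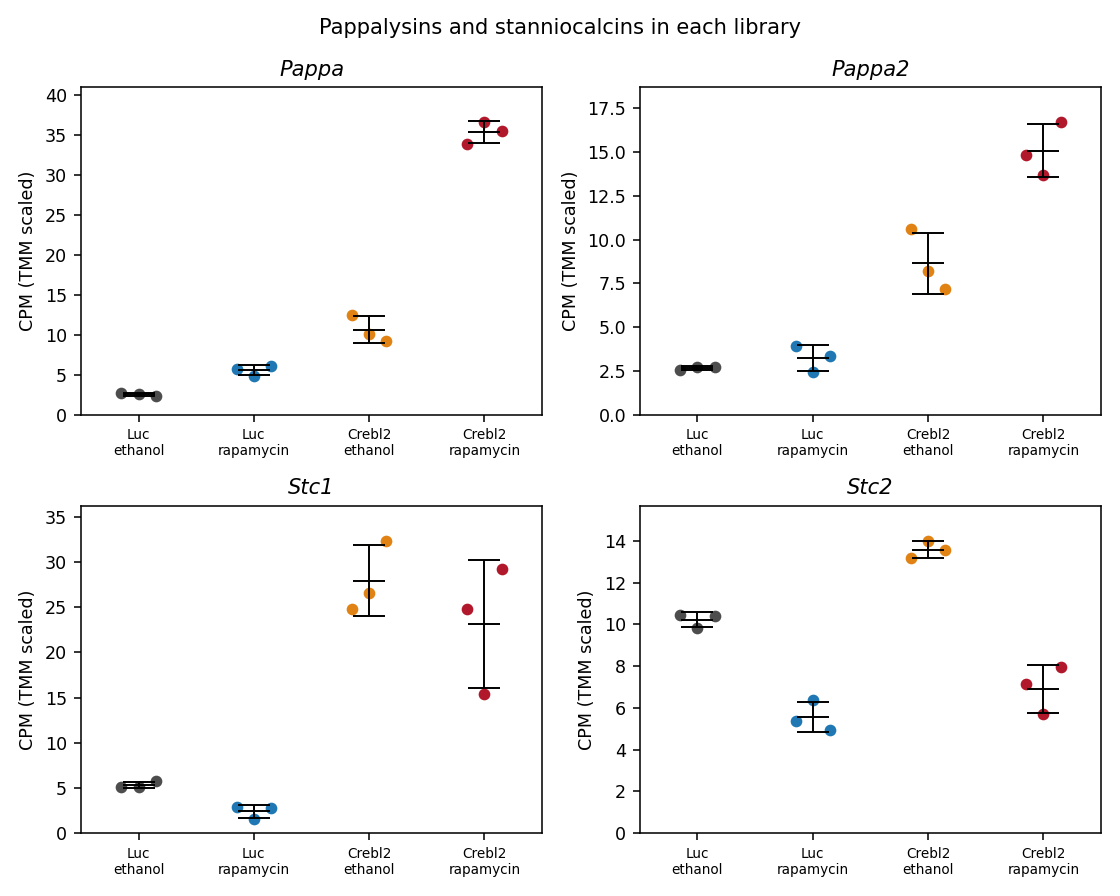
Level in CPM (y axis, linear from 0) of *Pappa*, *Pappa2*, *Stc1* and *Stc2* in each library, by group (x axis); points are libraries and bars show the mean ± SD of 3. *Pappa* goes from 2.39 to 2.66 CPM in the control group to 33.81 to 36.53 CPM in the group with both treatments, while *Stc2* is lower in both rapamycin groups than in both ethanol groups.

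*Stc1*, an inhibitor of pappalysins, was chosen with *Pappa* for its level with the Crebl2 siRNA. The control libraries had 5.17, 5.09 and 5.77 CPM and the knockdown libraries 24.83, 26.62 and 32.34 CPM of *Stc1*. It was at 2.88, 1.61 and 2.79 CPM in the rapamycin-only and at 24.81, 15.44 and 29.23 CPM in the combined libraries. The Luc libraries with rapamycin lay below those with ethanol, whereas the Crebl2 libraries with and without the drug overlapped. The last group was wide, its second library lying at 15.44 CPM.

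Rapamycin lowered *Stc1* on the Luc siRNA: it fell by 1.14 (SE 0.25, adjusted p = 0.0016). On the Crebl2 siRNA the value was −0.27, with a 95% interval of −0.66 to 0.12 (adjusted p = 0.25). Both tests share libraries with the choice of the gene. As a description, the siRNA differences were 2.39 in ethanol and 3.26 in rapamycin, and the rapamycin changes differed by 0.87 between the siRNAs. Without the second combined library the siRNA difference in rapamycin was 3.51.

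*Stc2*, the other stanniocalcin, was lower with rapamycin on either siRNA. Its level was 10.45, 9.82 and 10.42 CPM in the control and 13.16, 13.99 and 13.57 CPM in the knockdown libraries. With rapamycin *Stc2* stood at 5.38, 6.38 and 4.95 CPM (Luc siRNA) and 7.12, 5.69 and 7.94 CPM (Crebl2 siRNA). All 6 rapamycin libraries lay below all 6 ethanol libraries, and the siRNA groups overlapped in rapamycin only.

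*Stc2* fell by 0.87 with rapamycin on the Luc siRNA (SE 0.12, adjusted p = 1.7e-05) and fell by 0.97 on the Crebl2 siRNA (SE 0.11, adjusted p = 3.5e-06). It rose with the Crebl2 siRNA in ethanol by 0.41 (SE 0.11, 1.33-fold, adjusted p = 0.0078). In rapamycin the siRNA value of 0.31 (SE 0.12) just missed the threshold (adjusted p = 0.058). It passed when the second rapamycin-only library was left out (0.45, adjusted p = 0.012) or the second combined library (0.46, adjusted p = 0.0073). The rapamycin changes of *Stc2* differed by −0.10 between the siRNAs, with a 95% interval of −0.44 to 0.25.

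Set against each other per kilobase of readable exon, protease and inhibitor RNA placed the 4 groups apart. The sum of *Pappa* and *Pappa2* was 0.506 to 0.516 CPM per kilobase in the control, 0.7 to 0.929 in the rapamycin-only, 1.59 to 2.24 in the knockdown and 4.63 to 4.97 in the combined libraries. The sum of *Stc1* and *Stc2* was 3.71 to 4.02 CPM per kilobase in the control, 1.92 to 2.05 in the rapamycin-only, 9.26 to 11.1 in the knockdown and 5.12 to 8.98 in the combined libraries. Inhibitor RNA was above protease RNA in each of the 12 libraries, and rapamycin libraries had more protease and less inhibitor RNA than ethanol libraries of the same siRNA. Both sums hold a gene chosen on its siRNA values, so their position by siRNA is a description.

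**Figure D3:**
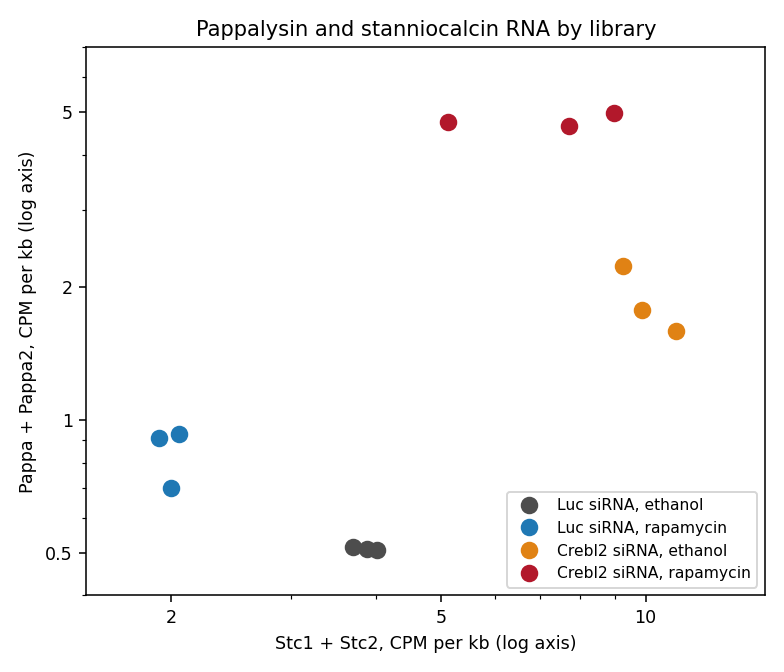
Summed level of *Pappa* and *Pappa2* (y axis) against that of *Stc1* and *Stc2* (x axis), both in CPM per kilobase on log axes, with 1 point per library and a colour per group. The 4 groups do not overlap in the plane; with each siRNA the rapamycin libraries lie above and to the left of the ethanol libraries.

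*Igfbp5*, a substrate of both pappalysins and a binding protein known to be secreted by myoblasts, was by far the most abundant of the 10 genes and fell with either treatment. Control libraries held 3850.25, 3632.39 and 4123.71 CPM and rapamycin-only libraries 2524.74, 2477.84 and 2398.79 CPM. *Igfbp5* was at 3100.94, 3170.38 and 3589.15 CPM in the knockdown and 2039.48, 1809.83 and 2242.84 CPM in the combined libraries. Libraries of the compared groups did not overlap in any of the 4 comparisons.

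With rapamycin *Igfbp5* fell by 0.65 on the Luc siRNA (SE 0.07, adjusted p = 3.3e-06) and fell by 0.69 on the Crebl2 siRNA (SE 0.07, adjusted p = 1.2e-06). With the siRNA *Igfbp5* fell by 0.24 in ethanol (SE 0.07, adjusted p = 0.018) and fell by 0.28 in rapamycin (SE 0.07, adjusted p = 0.0075). The ethanol call was lost without the third control library or the first knockdown library (−0.19, adjusted p = 0.085 each) and without the second knockdown library (−0.21, adjusted p = 0.062). The call in rapamycin was lost without the second combined library (−0.18, adjusted p = 0.073). Its rapamycin changes differed by −0.05 between the siRNAs (95% interval −0.26 to 0.17).

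*Igfbp3*, which encodes the main IGF carrier of the circulation and a substrate of PAPP-A2, was highest in the knockdown libraries. Its level was 36.99, 35.98 and 34.84 CPM in the control and 49.08, 53.81 and 49.26 CPM in the knockdown libraries. *Igfbp3* was at 31.17, 32.51 and 29.73 CPM in the rapamycin-only and 41.14, 34.53 and 36.4 CPM in the combined libraries. It was thus higher with the siRNA and lower with the drug, and the group with both overlapped the group with neither.

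The siRNA raised *Igfbp3* by 0.50 in ethanol (SE 0.06, adjusted p = 2.5e-05) and 0.26 in rapamycin (SE 0.07, adjusted p = 0.0063). Rapamycin lowered it: *Igfbp3* fell by 0.44 on the Crebl2 siRNA (SE 0.07, adjusted p = 4.4e-05) and fell by 0.21 on the Luc siRNA (SE 0.07, adjusted p = 0.020). The latter call was lost without the first control library (−0.19, adjusted p = 0.064) or the third rapamycin-only library (−0.20, adjusted p = 0.056).

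*Igfbp4*, the binding protein for which PAPP-A is best known, was somewhat higher with the siRNA. It was at 13.06, 10.2 and 12.29 CPM in the control and 15.63, 13.72 and 18.63 CPM in the knockdown libraries. In rapamycin *Igfbp4* stood at 13.39, 15.24 and 14.52 CPM (Luc siRNA) and 16.92, 15.7 and 16.09 CPM (Crebl2 siRNA). The siRNA groups did not overlap with either solvent or drug, although the rise was called in ethanol only, at 0.44 (SE 0.11, adjusted p = 0.0051).

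In rapamycin the siRNA value of *Igfbp4* was 0.17 with a 95% interval of −0.06 to 0.41 (adjusted p = 0.24). For rapamycin on the Luc siRNA the value was 0.28 (SE 0.11, adjusted p = 0.052), and over the alternative fits this adjusted p ranged from 0.027 to 0.22. It was under the threshold in 7 of 19 alternatives. On the Crebl2 siRNA the rapamycin value was 0.02, with an interval of −0.21 to 0.25.

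*Igfbp6*, which encodes a binding protein with a preference for IGF-II, passed no test. Its levels were 312.73, 286.07 and 306.68 CPM (control), 288.79, 345.19 and 300.82 CPM (rapamycin-only), 289.36, 259.93 and 317.45 CPM (knockdown) and 277.14, 298.05 and 289.52 CPM (combined). All 4 groups overlapped. The 95% intervals of its 4 changes lay between −0.27 and 0.20 on the log2 scale.

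*Igfbp2*, which encodes another IGF-binding protein found outside cells, varied more between libraries of a group than between groups. The control libraries had 131.29, 101.04 and 63.27 CPM and the rapamycin-only libraries 58.26, 122.97 and 85.33 CPM. *Igfbp2* was at 114.07, 85.32 and 124.94 CPM in the knockdown and 148.17, 103.24 and 107.69 CPM in the combined libraries. None of its changes passed the test, and the intervals were wide, the siRNA value in rapamycin being 0.43 with an interval of −0.11 to 0.97 (adjusted p = 0.22). Without the second rapamycin-only library this value was 0.77 (adjusted p = 0.025).

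*Igfbp7*, a binding protein of low IGF affinity, was read from few counts. In counts it had 13, 12 and 9 (control), 7, 12 and 10 (rapamycin-only), 10, 4 and 13 (knockdown) and 14, 22 and 12 (combined). Its rise of 0.95 with rapamycin on the Crebl2 siRNA (SE 0.35, adjusted p = 0.039) was lost without the first or second knockdown library (adjusted p = 0.069 and 0.14) and without the second combined library (adjusted p = 0.19). It was also lost with DESeq2 (adjusted p = 0.11).

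**Figure D4:**
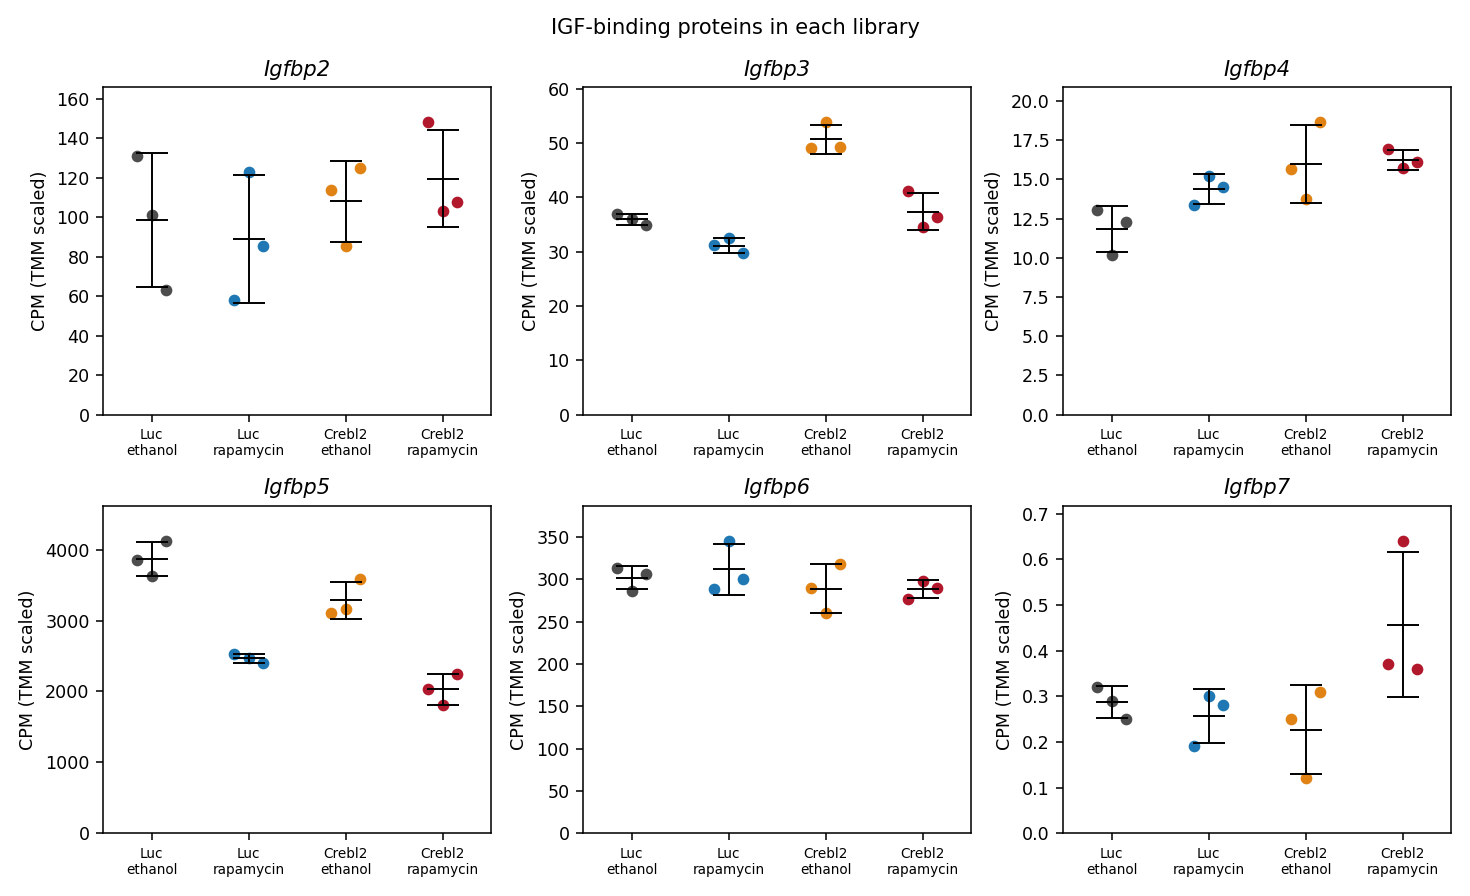
Level in CPM (y axis, linear from 0, a scale per gene) of the 6 IGF-binding protein genes in each library, by group (x axis); points are libraries and bars show the mean ± SD of 3. *Igfbp5* is lower in both rapamycin groups than in both ethanol groups, *Igfbp6* overlaps across all groups, and *Igfbp2* has the widest spread within groups among the genes above 20 CPM shown.

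The difference between the siRNAs in the rapamycin change passed the test for 1.2% of all tested genes, 0.611% upward and 0.589% downward. With edgeR 0 of the 8 genes other than *Pappa* and *Stc1* passed, a count that this background leaves uninformative. Of these 8, 2 had an unadjusted p under 0.05 (*Pappa2*, 0.039, and *Igfbp3*, 0.024), and DESeq2 also called 0. The *Igfbp3* difference was −0.23 with an interval of −0.43 to −0.03 (adjusted p = 0.26). Counted over all genes, these calls were few and varied with the setting, as given in the closing section.

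Per kilobase of readable exon, binding-protein RNA exceeded that of proteases and inhibitors in all groups for *Igfbp5*, *Igfbp6*, *Igfbp2* and *Igfbp3*, in this order. In the control libraries *Igfbp5* was at 644 CPM per kilobase, *Igfbp6* at 271, *Igfbp2* at 158 and *Igfbp3* at 16.9. Next came *Igfbp4* at 3.62, *Igfbp7* at 2.79 and *Stc2* at 2.6 CPM per kilobase, neighbours whose library ranges overlapped. *Stc1* followed at 1.27, *Pappa2* at 0.282 and *Pappa* at 0.229 CPM per kilobase, with no overlap between neighbours. In the combined libraries *Stc1* (5.52) overlapped *Igfbp4* (4.96), *Igfbp4* overlapped *Igfbp7* (4.49), and *Pappa* (3.2) was above *Stc2* (1.75) and *Pappa2* (1.58), all in CPM per kilobase.

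Among the 8381 tested genes with at least 90% readable exon, *Igfbp5* ranked 86th per kilobase in the control and 174th in the combined group. *Pappa* ranked 7328th and 4979th in the same groups. *Igfbp5* made up 0.382% to 0.427% of all counts in the control and 0.173% to 0.216% in the combined libraries. Of the summed level of *Igfbp2* to *Igfbp6* per kilobase, *Igfbp5* held 55.5% to 63.3% in the control and 39.8% to 45.1% in the combined libraries.

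Several genes that receive and pass on the IGF signal rose with rapamycin. In a list of 10 ligands, receptors, adaptors and carriers, 7 were tested, and 4 rose with rapamycin on each siRNA: *Igf1r*, the IGF receptor, *Insr*, the insulin receptor, and the adaptors *Irs1* and *Irs2*. Over all tested genes 19.5% (Luc siRNA) and 19.7% (Crebl2 siRNA) rose with rapamycin. With the siRNA 38.4% (ethanol) and 33.1% (rapamycin) of all tested genes were called. The median change of the 7 was 0.49 and 0.43 with rapamycin on the Luc and Crebl2 siRNA, and −0.05 and −0.07 with the siRNA in ethanol and rapamycin. *Igf1r* went from 182 to 256 CPM on the Luc siRNA (0.49, SE 0.07, adjusted p = 3.2e-05) and from 171 to 244 CPM on the Crebl2 siRNA (0.51, SE 0.07, adjusted p = 1.9e-05). *Irs1* rose by 0.55 (adjusted p = 6.5e-06) and 0.43 (adjusted p = 6.2e-05). *Irs2* rose by 0.86 (adjusted p = 1.2e-08) and 0.96 (adjusted p = 2.8e-09), and was the sole gene of the list called with the siRNA. *Irs2* fell by 0.42 with the siRNA in ethanol (adjusted p = 4.4e-05) and fell by 0.32 in rapamycin (adjusted p = 0.00053). The ligand *Igf1* was at 11.2 to 12.2 CPM in all groups and passed no test. *Igf2* was at 0 in all libraries, with 30% of its exonic bases readable, and *Igfbp1* was at 0.0238 CPM or less in the group means.

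Other proteases that can cut IGF-binding proteins moved in both directions. Of 14 listed, 9 were tested, 2 rose and 4 fell with the siRNA in ethanol, and 3 rose and 3 fell in each of the other comparisons. Their median change was −0.09 and 0.12 with the siRNA in ethanol and rapamycin, and −0.06 and 0.08 with rapamycin on the Luc and Crebl2 siRNA. Over all tested genes 38.4% and 33.1% were called with the siRNA, and 41.1% and 45.3% with rapamycin, in the same order. *Adam12*, a membrane protease that cuts IGFBP-3 and IGFBP-5, went from 41.4 to 84.5 CPM with the siRNA in ethanol (1.03, SE 0.08, adjusted p = 7.1e-08) and from 47.6 to 89.2 CPM in rapamycin (0.91, SE 0.07, adjusted p = 2.8e-07). *Adam12* is also among the 3 that rose with rapamycin on the Luc siRNA (0.20, adjusted p = 0.046), a call that most libraries, left out in turn, ended (adjusted p up to 0.23). *Plau*, the urokinase plasminogen activator, fell by 0.57 (adjusted p = 1.4e-06) and fell by 0.53 (adjusted p = 3.5e-06) with the siRNA. With rapamycin *Plau* fell by 0.69 (adjusted p = 8.6e-08) on the Luc siRNA and fell by 0.65 (adjusted p = 1.3e-07) on the Crebl2 siRNA. *Adamts1*, a secreted metalloprotease, rose with the siRNA by 0.41 in ethanol (adjusted p = 0.0014) and 1.00 in rapamycin (adjusted p = 4.9e-07). With rapamycin *Adamts1* fell by 0.94 on the Luc siRNA (adjusted p = 4.1e-07) and fell by 0.34 on the Crebl2 siRNA (adjusted p = 0.0037). *Prg2*, which encodes the other known inhibitor of PAPP-A, proMBP, was at 0.0238 CPM or less in every library.

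Of 10 other secreted proteins with an IGF-binding-protein domain, 7 were tested. With the siRNA 2 rose and 3 fell in ethanol, and 3 rose and 1 fell in rapamycin. With rapamycin 3 rose and 1 fell on the Luc siRNA, and 4 rose and 3 fell on the Crebl2 siRNA. The median change was −0.09 and 0.15 with the siRNA, and −0.14 and 0.64 with rapamycin, in the same order. The shares of all tested genes called were 38.4% and 33.1% with the siRNA, and 41.1% and 45.3% with rapamycin. *Htra3*, a secreted serine protease, fell by 1.22 (SE 0.07, adjusted p = 6.6e-09) and fell by 1.45 (SE 0.07, adjusted p = 1.5e-09) with the siRNA in ethanol and rapamycin. *Ccn1*, a matrix-associated signalling protein, rose with rapamycin from 1190 to 1620 CPM on the Luc siRNA (0.44, adjusted p = 2.4e-06) and from 1040 to 1800 CPM on the Crebl2 siRNA (0.80, adjusted p = 2.8e-09). *Ccn5* of the same family rose with rapamycin by 0.70 (adjusted p = 4.1e-07) and 1.25 (adjusted p = 4.8e-10).

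**Figure D5:**
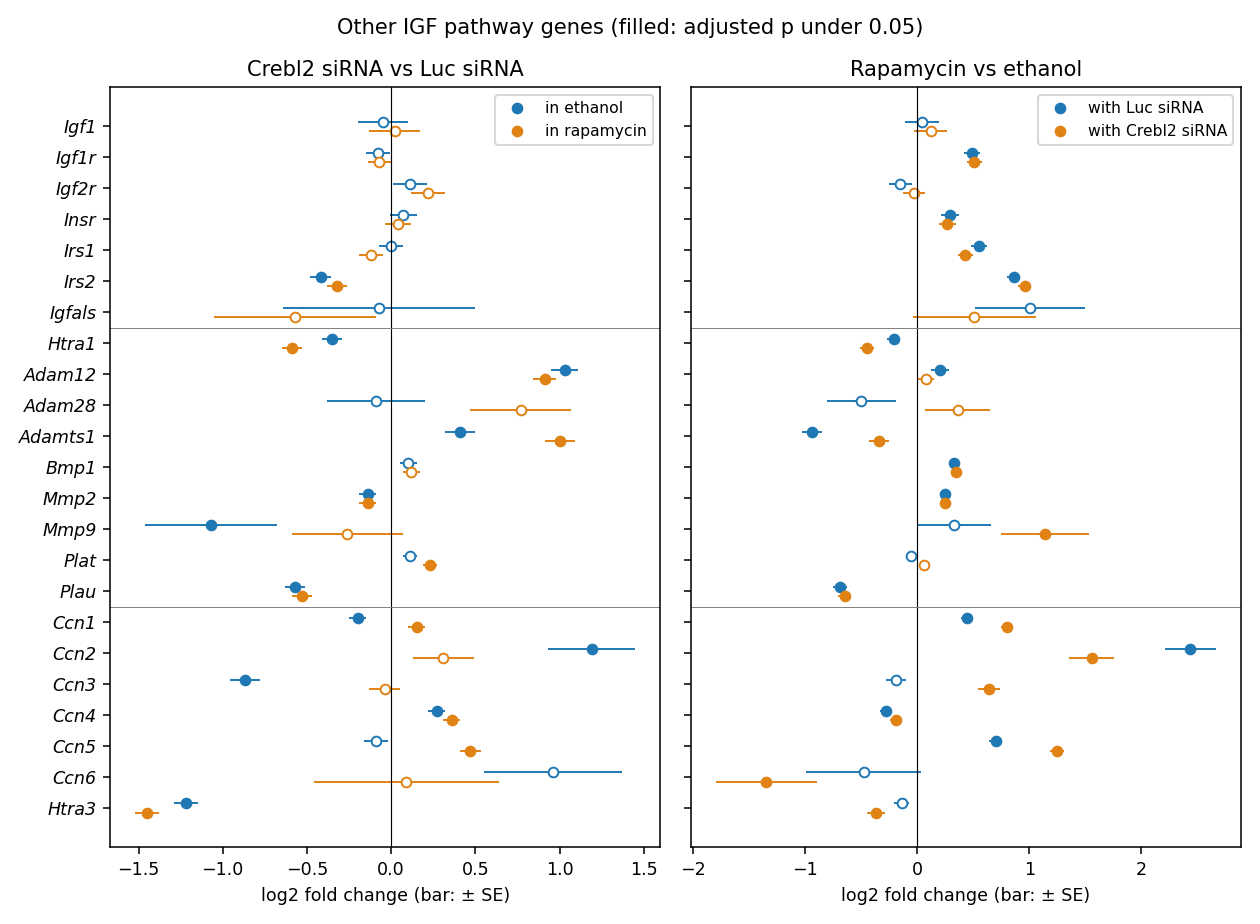
Log2 fold change (x axis, with bars of ± SE) of the tested genes from the lists of IGF ligands, receptors, adaptors and carriers, other proteases, and other proteins with an IGF-binding-protein domain (y axis, separated by lines), for the siRNA (left) and rapamycin (right); filled points have an adjusted p under 0.05. *Igf1r*, *Insr*, *Irs1* and *Irs2* lie to the right of 0 in the rapamycin panel, and *Adam12* and *Htra3* lie on opposite sides of 0 in the siRNA panel.

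The protein-coding genes whose log2 level followed each gene most closely over the 12 libraries were listed among 6987 candidates, as a description. The 12 points share 4 groups and the same libraries, so high values of r are common. *Pappa* was followed by *Usp22*, a deubiquitinase (r = 0.989), *Stmn2*, a stathmin that binds tubulin (r = 0.989), and *Col5a2*, a chain of type V collagen (r = 0.987). From the control to the combined group, *Stmn2* went from 170 to 664 CPM, *Usp22* from 248 to 424 CPM and *Col5a2* from 2470 to 3910 CPM. For *Stc1* the closest were *Fzd3*, a Wnt receptor (r = 0.978), *Cdc40*, a splicing factor (r = 0.971), and *Slc25a5*, a mitochondrial ADP/ATP carrier (r = 0.968).

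*Stc2* was followed by the glycosyltransferases *St3gal1* (r = 0.975) and *B4galt6* (r = 0.971) and by *Sqle*, squalene epoxidase of cholesterol synthesis (r = 0.968). For *Igfbp5* they were *Kctd7* (r = 0.983), *Fdft1*, squalene synthase (r = 0.978), and *Hcfc2* (r = 0.975). *Igfbp3* was followed by *Appbp2* (r = 0.972), *Tmx1* (r = 0.969) and *Nus1* (r = 0.967). The closest genes were less close for *Igfbp4* (*Vti1a*, r = 0.947), *Igfbp6* (*Rpusd1*, r = 0.91), *Igfbp2* (*Iffo2*, r = 0.907) and *Igfbp7* (*Tspo*, r = 0.876). Among the 10 genes themselves r was 0.95 between *Pappa* and *Pappa2*, and 0.55 between *Stc1* and *Stc2*.

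Markers of muscle differentiation moved with the same factors as *Pappa*, in the other direction. The summed level of 16 such genes was 537 to 691 CPM in the control, 200 to 242 CPM in the rapamycin-only, 69.6 to 86.1 CPM in the knockdown and 43.4 to 54.6 CPM in the combined libraries. Of the 9 tested, 9 fell with the siRNA in ethanol and in rapamycin, 9 fell with rapamycin on the Luc siRNA and 8 on the Crebl2 siRNA. Their median change was −2.87 and −2.16 with the siRNA and −1.45 and −0.86 with rapamycin. Over all tested genes 17% and 16.8% fell with the siRNA, and 21.6% and 25.6% with rapamycin, in the same order. The *Acta1* fall with rapamycin on the Crebl2 siRNA (−0.36, adjusted p = 0.021) was lost without the third knockdown library (adjusted p = 0.095) and without the first (0.12) or second (0.094) combined library. *Myog*, the transcription factor myogenin, fell by 3.33 with the siRNA in ethanol (adjusted p = 7.4e-10), and the muscle actins *Actc1* and *Acta1* fell by 3.53 (adjusted p = 1.5e-10) and fell by 3.00 (adjusted p = 1.5e-10). Their part in the changes of the 10 genes was not tested, and in bulk RNA fewer cells of a type and less RNA per cell cannot be told apart.

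The 7 myoblast markers, all tested, summed to 3620 to 5290 CPM over the 12 libraries, with a lower sum in the rapamycin-only libraries (3620 to 3900 CPM) than in any other group. With the siRNA 0 of them rose and 2 fell in ethanol, and 3 rose and 1 fell in rapamycin. Of all tested genes 21.4% rose and 17% fell with the siRNA in ethanol, and 16.3% rose and 16.8% fell in rapamycin. With rapamycin 0 myoblast markers rose and 3 fell on the Luc siRNA, and 1 rose and 3 fell on the Crebl2 siRNA. For all tested genes these shares were 19.5% and 21.6% (Luc siRNA), and 19.7% and 25.6% (Crebl2 siRNA). The lower rapamycin-only sum was carried by *Itga7* (1320 to 751 CPM from the control), *Cdh15* (859 to 492 CPM) and *Chrna1* (992 to 658 CPM). The other 4 were not called on the Luc siRNA. Fibroblast and adipocyte-lineage markers summed to 24 to 28.7 CPM with the Luc siRNA and 14.4 to 19.6 CPM with the Crebl2 siRNA, but the members went both ways. Of 5 tested, 1 rose and 2 fell with the siRNA in ethanol and in rapamycin. The adipocyte lipid carrier *Fabp4* rose by 1.78 (adjusted p = 0.00065) and 1.66 (adjusted p = 0.00063). Its level was low throughout, going from 0.228 to 0.788 CPM in ethanol and from 0.337 to 1.07 CPM in rapamycin. The matrix protein gene *Dpt* fell by 2.85 (adjusted p = 3e-09) and fell by 3.07 (adjusted p = 2.7e-08). *Cd34*, the other that fell, was read over 8.1% of its exonic bases. Summed macrophage, endothelial and epithelial markers reached at most 0.623, 1.06 and 0.58 CPM, over the bases that could be read. *Ptprc*, *Adgre1* and *Itgam* had no counts, but only 8.4%, 3.5% and 5.6% of their exonic bases were readable, so these zeros say little about macrophages. The neuron list summed to 245 to 251 CPM in the control group and 697 to 774 CPM with both treatments, a rise carried by *Stmn2*. Of 3 tested, 2 rose with the siRNA in ethanol and 3 in rapamycin. *Tubb3*, a neuronal tubulin, went from 74.7 CPM in the control to 56.6 CPM in the combined group. It rose with the siRNA by 0.84 in ethanol (adjusted p = 8.1e-08) and 0.59 in rapamycin (adjusted p = 5.4e-06). Its rapamycin changes were −0.99 on the Luc siRNA and −1.24 on the Crebl2 siRNA (adjusted p = 7.9e-09 and 3.9e-10). *Rbfox3*, *Snap25* and *Syt1* had no counts, with 23.4%, 59.9% and 1.8% of their exonic bases readable.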

How the data were processed

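Each of the 12 deposited files lists raw counts of reads, as whole numbers and without normalization, for 58611 Ensembl transcripts. Per the labels, libraries were made with a stranded total RNA kit. Trim Galore, TopHat and HTSeq, and both mm9 and GRCm38, are named in the submitters' processing notes. Versions, annotation release, strandedness and the treatment of shared reads are not given in the sources used here. Names and coordinates came from GENCODE M21 (GRCm38), to which 99.41% of transcripts matched. The unmatched 347 (0.038% of reads) were dropped. Shared reads are missing from the counts: among transcripts of protein-coding genes, 99.3% of the 8507 that share every exonic base were at 0 throughout, against 32.0% of the 31837 others.

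Transcript counts were summed per gene. edgeR 4.0.16 in R 4.3.3 tested 13247 genes (filter by group, minimum count of 10, TMM) with a mean per group over all 12 libraries. The standard error was taken from the log2 fold change and its F statistic (absolute value over root F), and intervals cover 95%. CPM per kilobase divides by exonic bases of a single listed transcript. An exact permutation test of 3 against 3 libraries cannot go below 0.1. The fit was tested on simulated data. At 1.5-fold, 49% to 54% of 100 changed genes were recovered in the 4 comparisons and 43% in the difference between the siRNAs. At 2-fold these shares were 77% to 84% and 62%, and 1.52% to 7.04% of calls were false. Only 100 of the 13247 genes were changed at each fold, far fewer than were called in the 4 comparisons of the data. The same adjusted threshold thus demanded smaller p-values in the simulation, and its shares do not give the power of those 4 comparisons. Small changes can still be missed. Alternatives were a replicate block, RLE scaling, DESeq2 1.42.0, a count minimum of 50 or none, only the compared groups, each member's main transcript, and each library left out. The members and lists were chosen with earlier results of these data known. Named genes were Crebl2, the members, the 3 genes most like each member (Pappa2 excepted; mean of at least 5 CPM), and 3 called genes per list by smallest p. *Insr* and *Prg2*, and markers given at 0, were named outside that rule after their values were seen. *Igf1*, *Igf2*, *Igfbp1* and *Ccn3* were too.

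RefSeq promoter windows (250 bases before to 50 after the start, GRCm38.p6) matched 8 of the 10 genes. *Pappa* and *Stc1* were not matched, and promoters are not described.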

Additional observations from a re-analysis of the deposited data

Results flagged for a closer look

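The difference between the siRNAs in the rapamycin change is given as log2, Crebl2 siRNA minus Luc siRNA. It was looked up for the 10 genes, *Crebl2* and the genes named from the lists. Genes named only for following a member closely were not looked up. By edgeR's quasi-likelihood test the difference passed for 8 of those looked up, none of them among the 10. Each was positive: 0.60 for *Adamts1* (adjusted p = 0.025), 0.56 for *Ccn5* (adjusted p = 0.0062), 0.35 for *Ccn1* (adjusted p = 0.018), 1.27 for *Actc1* (adjusted p = 0.0029) and 1.13 for *Acta1* (adjusted p = 0.0025). The myoblast markers *Itga7*, *Cdh15* and *Chrna1* differed by 0.39 (adjusted p = 0.019), 0.41 (adjusted p = 0.024) and 0.28 (adjusted p = 0.048). Of the 8, only *Ccn1* and *Ccn5* rose with rapamycin, and by more on the Crebl2 siRNA. The others fell with rapamycin on both siRNAs, and by less on the Crebl2 siRNA (*Actc1*: −2.13 on Luc, −0.86 on Crebl2). *Ccn3*, a listed gene that the naming rule left out, also passed, with a difference of 0.83 (adjusted p = 0.0059). Its rapamycin change was −0.19 on the Luc siRNA (adjusted p = 0.12) and 0.64 on the Crebl2 siRNA (adjusted p = 4.9e-05). Of all tested genes 1.2% passed this test. The list genes were named by smallest p in these same libraries, so the 8 were not a fair draw from all tested genes. Over the alternatives the adjusted p reached at most 0.023 for *Ccn5*, 0.011 for *Actc1* and 0.0095 for *Acta1*. It reached 0.063 for *Ccn1* and 0.059 for *Itga7*, both under the replicate block.

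The *Adamts1* call was lost without the second or the third control library and without any of the 3 knockdown libraries (adjusted p = 0.051 to 0.065). *Cdh15* was lost without the first or second control library or the first knockdown library (adjusted p up to 0.056) and under the block (0.076). *Chrna1* was lost without any control library, the first or second knockdown library or the third combined library, and under the block, with an adjusted p of up to 0.11.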

How the results depend on the processing

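The tested member changes were recomputed 823 times over the alternatives. In 794 cases they stayed on their side of the threshold, 20 of these with another sign while uncalled in both fits, 18 came to pass and 11 no longer passed. None turned its sign while called. The siRNA and difference values of *Pappa* and *Stc1*, given without a test, kept their sign in 112 cases and moved by more than their SE in 2. Those that changed a call by leaving out a library stand beside the result. Without the count filter, 5 of the 8 genes other than *Pappa* and *Stc1* were called with the siRNA in rapamycin (3 otherwise), and 1 (*Igfbp2*, 0.36, adjusted p = 0.0013) in the difference between the siRNAs (0 otherwise). With the filter that difference was 0.30 (SE 0.36, adjusted p = 0.78). The fit without the filter gave far smaller p-values at similar changes. For *Igfbp2* with the siRNA in rapamycin the adjusted p was 2.2e-14 at 0.46, against 0.22 at 0.43 with the filter. The unfiltered fit also called *Igfbp2* for rapamycin on each siRNA (−0.19 and 0.16) and *Stc1* for rapamycin on the Crebl2 siRNA (−0.26, adjusted p = 0.014). *Stc2* passed with the siRNA in rapamycin under RLE scaling (adjusted p = 0.039), no filter (0.023) and DESeq2 (0.026). Among the listed genes, *Ccn1* no longer passed with the siRNA in rapamycin (0.15, adjusted p = 0.025) under the block (0.051) or without the third rapamycin-only library (0.053). The cause was not tested.

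Leaving out each library gave 3 to 5 called with the siRNA in rapamycin, 5 of them without the second rapamycin-only library, and 0 throughout in the difference between the siRNAs. Over all genes, 159 differed between the siRNAs in their rapamycin change. This count was 415 without the filter, 391 with DESeq2 and 91 with the replicate block, and 85 to 172 when a library was left out. It was 94 without the second control, 88 without the third rapamycin-only, 102 without the first knockdown and 85 without the third combined library. With all exonic bases as length, the control level was 67.5 for *Igfbp2*, 11.5 for *Igfbp3*, 3.02 for *Igfbp4* and 0.235 CPM per kilobase for *Igfbp7*, since more bases were divided by.

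Replicate numbers did not pair the samples. Same-numbered libraries of different groups correlated at −0.29 to 0.12 in their deviations from group means, 2 of 18 pairs being over 0.1, and 3 of 18 were closest to their own number. Under the replicate block *Igfbp4* with rapamycin on the Luc siRNA came to pass (adjusted p = 0.05) and *Igfbp7* on the Crebl2 siRNA no longer did (adjusted p = 0.063). No member's other call changed with the block. *Igfbp7* had 4 to 22 counts per library over 102 readable bases, the lowest depth of the 10 genes.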

Other observations

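*Igfbp2* stood out for its spread between libraries of a group. Its coefficient of variation was 34.6% in the control, 36.6% in the rapamycin-only, 18.9% in the knockdown and 20.7% in the combined libraries. The median over genes above 20 CPM was 4.2%, 4.1%, 4.8% and 3.8% in the same groups, and *Igfbp2* lay at the 99.3rd to 99.8th percentile of these genes. *Igfbp5*, its neighbour on chromosome 1, had 6.4%, 2.6%, 8% and 10.7%. The libraries with the highest *Igfbp2* were the first of the control group (131.29 CPM), the second of rapamycin-only (122.97 CPM), the third of knockdown (124.94 CPM) and the first of combined (148.17 CPM).

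*Stc1* and *Pappa2* varied by 7% and 4% in the control and by 29.2% and 23.2% in the rapamycin-only libraries. In that group the second library was the lowest for *Stc1* (1.61 CPM), *Pappa2* (2.44 CPM) and *Pappa* (4.89 CPM), and the highest for *Stc2* (6.38 CPM), *Igfbp2* (122.97 CPM), *Igfbp3* (32.51 CPM), *Igfbp4* (15.24 CPM), *Igfbp6* (345.19 CPM) and *Igfbp7* (0.30 CPM). In the combined group the second library was the lowest for *Stc1* (15.44 CPM), *Stc2* (5.69 CPM), *Pappa2* (13.7 CPM), *Igfbp2* (103.24 CPM), *Igfbp3* (34.53 CPM), *Igfbp4* (15.7 CPM) and *Igfbp5* (1809.83 CPM), and the highest for *Pappa* (36.53 CPM), *Igfbp6* (298.05 CPM) and *Igfbp7* (0.64 CPM).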
